A study of Mus musculus with 6 samples.

Results

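The genes described here encode ligands, receptors and signal transducers of the transforming growth factor beta (TGF-beta) pathway. They are the ligands *Tgfb1*, *Tgfb2* and *Tgfb3*, the receptors *Tgfbr1*, *Tgfbr2* and *Tgfbr3*, and the SMAD genes *Smad2*, *Smad3* and *Smad7*. Added to these is *Ltbp2*, a matrix member of the latent TGF-beta binding protein family. The genes were selected by gene symbol, and each of the 10 was found once in a table of 18112 genes. RNA-seq was performed on cultured primary aortic smooth muscle cells of C57BL/6 mice, with 3 libraries of *Smyd2* fl/fl cells and 3 of *Smyd2* SMC-/- cells. *Smyd2* encodes a lysine methyltransferase. Both groups carry the floxed allele, which Cre recombinase driven by the *Tagln* promoter deletes in *Smyd2* SMC-/- mice, and *Tagln* is also expressed in some cells other than smooth muscle. The mice were young adults according to the methods of the study. The sample labels give passage 6 and 10% fetal bovine serum, whereas the methods describe an earlier passage and overnight starvation, so the culture state is uncertain. The methods also describe removal of the endothelium and the adventitia before the medial cells were released, and a purity check of each isolation by smooth muscle actin staining. Nothing in the labels says that the libraries of a group came from separate animals, and p-values therefore measure the spread between these libraries, which may be technical.

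TGF-beta ligands are secreted in a latent form, held in the matrix by latent TGF-beta binding proteins, and released by integrins and proteases. The active ligand is bound by the type II receptor TGFBR2, which phosphorylates the type I receptor TGFBR1, while betaglycan (TGFBR3) is a co-receptor that presents the ligand. TGFBR1 then phosphorylates SMAD2 and SMAD3, which enter the nucleus with SMAD4, and SMAD7 is an induced inhibitor of the receptor. In the arterial wall the pathway is known for promoting contractile gene expression and matrix synthesis in smooth muscle cells, and mutations in several of its genes cause familial aortic aneurysm.

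Expression was given in FPKM, a level scaled to transcript length and to the mapped fragments of a library, so that levels can be set against each other between genes. The steps between low values put the depth at about 17350000 to 20450000 fragments per library. Replicate 1 stood apart from replicates 2 and 3 in both genotypes. The first principal component held 50.2% of the variance and set the replicate 1 libraries below the others. On it the *Smyd2* SMC-/- library was also the higher one within each replicate number. The second held 33.1% and divided the genotypes, with replicate 1 the lowest within each genotype. Results are therefore given for all 6 libraries and, where they differ, with replicate number as a blocking factor in limma and for replicates 2 and 3 alone. With 1 library of each genotype, replicate 1 could not be tested alone. Where a gene is given by library, the values follow the order of replicates 1, 2 and 3.

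*Smyd2* itself (NCBI Gene 226830) measured 7.87, 3.10 and 3.0 FPKM in the *Smyd2* fl/fl libraries and 1.67, 0.40 and 0.80 FPKM in the *Smyd2* SMC-/- libraries. Each *Smyd2* SMC-/- library was below each *Smyd2* fl/fl library. The value covers the whole gene, including exons outside the deleted part. The log2 fold change, here and below of FPKM + 1 and *Smyd2* SMC-/- minus *Smyd2* fl/fl, was −1.48 (standard error 0.389). Its adjusted p was 0.105 in limma without a block, 0.0189 when replicate number was blocked and 0.00126 in replicates 2 and 3 alone.

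The cells are labelled smooth muscle, but several defining markers were near 0. Of 9 smooth muscle markers, *Myh11*, *Myocd*, *Des* and *Synpo2* were under 0.5 FPKM in every library. The most abundant was smooth muscle actin, *Acta2*, and the 9 markers summed to 922.2, 821.8 and 814.5 FPKM in the *Smyd2* fl/fl libraries and 263.4, 429.1 and 376.7 FPKM in the *Smyd2* SMC-/- libraries. Without *Acta2* the sums were 160.7, 139.4 and 131.5 FPKM and 62.5, 161.2 and 114.6 FPKM, and the groups overlapped. Of 5 tested genes of the list 4 had a negative and 1 a positive log2 fold change. In limma 1 fell without a block and 1 when blocked (2.44% and 10.4% of all genes passed). In replicates 2 and 3 alone 1 fell and 1 rose (29.0%). The riser, *Lmod1*, was chosen after its values were seen (log2 fold change 0.83, adjusted p = 0.00335 in limma, and 0.24 and 0.817 over all libraries).

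The 9 adventitial fibroblast markers, led by *Ly6a*, summed to 216.4, 515.6 and 438.3 FPKM in the *Smyd2* fl/fl libraries and 52.9, 170.3 and 157.5 FPKM in the *Smyd2* SMC-/- libraries. Of 7 tested genes of that list 4 had a negative and 3 a positive log2 fold change, and 1 fell in limma without a block (2.44% of all genes passed), 2 fell when blocked (10.4%), and 4 fell and 1 rose in replicates 2 and 3 alone (29.0%). The genes of this list given here were chosen after their values were seen. *Dpt*, a matrix protein gene, fell from 143.9, 90.3 and 65.5 FPKM to 3.31, 1.15 and 0.63 FPKM (log2 fold change −5.28, adjusted p = 0.00417 in limma). *Ly6a* fell when blocked (log2 fold change −1.09, adjusted p = 0.0404, against 0.552 without), and without a block its log2 fold change was −1.99 without *Smyd2* fl/fl replicate 1 and −0.46 without *Smyd2* SMC-/- replicate 1. *Pdgfra*, a growth factor receptor gene, measured 18.1, 31.9 and 29.8 FPKM against 11.8, 4.85 and 7.10 FPKM, and the groups did not overlap (log2 fold change −1.66, adjusted p = 0.0601 in limma, 0.0584 when blocked, 0.000120 in replicates 2 and 3 alone and 0.0265 without *Smyd2* SMC-/- replicate 1). *Pi16* was the lower one in *Smyd2* SMC-/- cells within each replicate number (log2 fold change −1.32, adjusted p = 0.304 in limma, 0.0558 when blocked and 0.0127 in replicates 2 and 3 alone). *Lum*, a proteoglycan gene, lay in the other direction at 0.0, 1.31 and 1.17 FPKM against 0.26, 14.5 and 10.4 FPKM (log2 fold change 1.82, adjusted p = 0.342 in limma, 7.40e-05 in replicates 2 and 3 alone and 0.0231 without *Smyd2* SMC-/- replicate 1). *Clec3b* and *Scara5* had log2 fold changes of 0.05 and 0.08, which ranged from −0.356 to 0.388 and from −0.669 to 0.805 when 1 library was left out, while *Col15a1* and *Dpep1* were under 0.5 FPKM in every library. The 9 endothelial markers, led by *Kdr*, summed to 1.82 to 5.64 FPKM per library, with *Cdh5*, *Tek*, *Tie1*, *Vwf*, *Emcn* and *Erg* under 0.5 FPKM in every library. *Kdr*, chosen like the next 3 genes after its values were seen, measured 0.47, 0.58 and 0.84 FPKM against 0.96, 5.15 and 2.96 FPKM, without overlap (log2 fold change 1.16, adjusted p = 0.186 in limma, 0.0770 when blocked, 0.00260 in replicates 2 and 3 alone and 0.0277 without *Smyd2* SMC-/- replicate 1). *Pecam1*, below the filter, lay the other way at 0.56, 0.88 and 0.92 FPKM against 0.12, 0.18 and 0.0 FPKM. The 9 macrophage markers, led by *Cd14*, summed to 18.4 to 42.6 FPKM, with *Ptprc*, *Adgre1*, *C1qa*, *C1qb* and *Itgam* under 0.5 FPKM in every library. *Csf1r* measured 0.58, 0.53 and 0.48 FPKM against 1.66, 1.42 and 1.14 FPKM, without overlap (log2 fold change 0.65, adjusted p = 0.102 in limma, 0.0565 when blocked and 0.0192 in replicates 2 and 3 alone), and *Lyz2* lay the other way (log2 fold change −0.64, adjusted p = 0.398 in limma and 0.00294 in replicates 2 and 3 alone). Of 4 tested macrophage markers these 2 passed in replicates 2 and 3 alone, against 29.0% of all genes. Over all libraries 1 of the 4 had a positive and 3 a negative log2 fold change. No marker was listed at 0 in all 6 libraries. Fewer cells of a type and less RNA per cell cannot be told apart in such libraries.

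The ligand gene *Tgfb2* and the co-receptor gene *Tgfbr3* were higher in each *Smyd2* SMC-/- library than in any *Smyd2* fl/fl library, at 2.35 and 1.87 times the mean FPKM. *Tgfb1*, *Tgfb3* and *Tgfbr2* were higher in *Smyd2* SMC-/- cells in replicates 2 and 3, and the SMAD genes, *Tgfbr1* and *Ltbp2* did not pass the test in any alternative run. All 10 genes passed the filter of a mean of 0.5 FPKM, which left 12565 genes for the test. In limma without a block 0 of the 10 had an adjusted p under 0.05, where 2.44% of all genes tested passed, and 2 of them, *Tgfb2* and *Tgfbr3*, had an unadjusted p under 0.05, as did 20.3% of all genes. With replicate number blocked 3 of the 10 passed, *Tgfb2*, *Tgfbr2* and *Tgfbr3*, all higher in *Smyd2* SMC-/- cells, against 10.4% of all genes. A block for replicate 1 against the others, added after the data were seen, gave 4 of 10 against 20.3% of all genes, and replicates 2 and 3 alone gave 5 of 10 against 29.0%. The groups did not overlap for 2 of the 10 genes, against 28.1% of all genes. The summed smooth muscle and fibroblast markers were lower in *Smyd2* SMC-/- cells beside these differences. The smooth muscle sum without *Acta2* overlapped between the groups, and *Lmod1* of that list was higher in replicates 2 and 3. Single fibroblast markers lay in both directions. *Kdr* and *Csf1r* were higher and *Pecam1* lower beside these differences without overlap, each at a low level. Of the 4 tested macrophage markers 3 had a negative log2 fold change. The part of these markers in the differences was not tested.

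The median log2 fold change of the 10 genes was 0.29, and that of all genes tested −0.02. The median of the 10 was 0.06 without *Smyd2* fl/fl replicate 1, 0.125 without *Smyd2* SMC-/- replicate 2 and 0.19 without *Smyd2* SMC-/- replicate 3. Rescaling to TPM, in which every library sums to the same total, moved the median of all genes by 0.113. Across all genes 154 were higher and 152 lower in *Smyd2* SMC-/- cells (50.3% higher), and after that rescaling 247 were higher and 99 lower (71.4% higher). *Tgfb2* and *Tgfbr3* were then called, with log2 fold changes of 1.22 and 0.89 relative to the median of all genes.

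**Figure D1:**
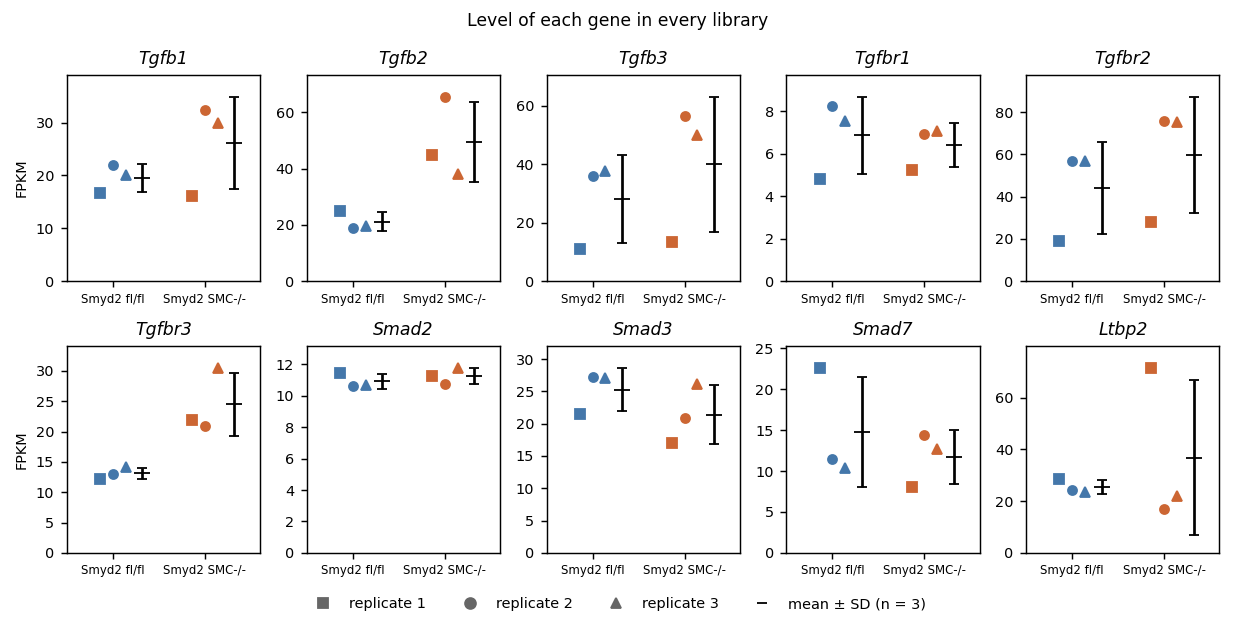
FPKM of each of the 10 genes (vertical axis, starting at 0) in the 3 *Smyd2* fl/fl (blue) and 3 *Smyd2* SMC-/- (orange) libraries, with symbols for the replicate number and black bars for the mean ± SD (n = 3). *Tgfb2* and *Tgfbr3* show no overlap between the groups, *Tgfb3* and *Tgfbr2* are low in both replicate 1 libraries, and *Ltbp2* reaches 71.3 FPKM in 1 *Smyd2* SMC-/- library.

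**Figure D2:**
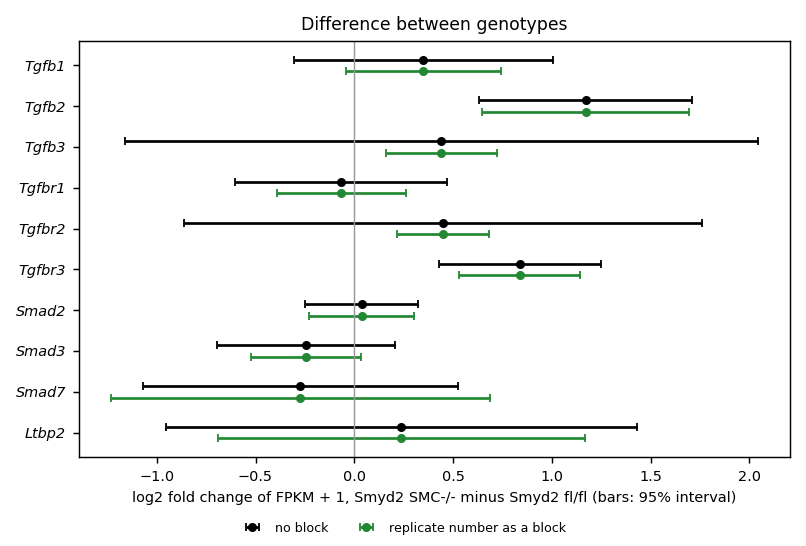
Log2 fold change of FPKM + 1 (horizontal axis) for each of the 10 genes, with bars for the 95% confidence interval from limma without a block (black) and with replicate number blocked (green). The intervals of *Tgfb3* and *Tgfbr2* narrow most when blocked, from a standard error of 0.669 to 0.109 and from 0.547 to 0.0911.

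Among the ligands, *Tgfb2* (NCBI Gene 21808) differed most between the genotypes. This isoform is needed for development of the heart and outflow tract. *Tgfb2* measured 24.9, 18.7 and 19.5 FPKM in the *Smyd2* fl/fl libraries and 44.8, 65.5 and 38.1 FPKM in the *Smyd2* SMC-/- libraries. All *Smyd2* SMC-/- libraries were above all *Smyd2* fl/fl libraries, and the ratio within a replicate number was 1.80, 3.50 and 1.96. The log2 fold change was 1.17 (95% interval 0.63 to 1.71), with an adjusted p of 0.0553 in limma. *Tgfb2* passed when replicate number was blocked (adjusted p = 0.0369), in replicates 2 and 3 alone (0.0154), after rescaling to TPM (0.0414) and after quantile normalization (0.0483). Over 13 alternatives its log2 fold change ranged from 0.95 to 1.34 and its adjusted p from 0.0154 to 0.197. Genotype accounted for 83.7% of its sum of squares and replicate number for 5.78%.

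*Tgfb2* lies on chromosome 1, at 186622792 to 186705989 on the minus strand of GRCm38 in the GENCODE M21 annotation, and *Tgfbr2* on chromosome 9, at 116084293 to 116175360 on the minus strand. Their promoters are shown because, of the 3 genes called with replicate number blocked, these were matched in the promoter table and *Tgfbr3* was not. The 250 bases before each start are from RefSeq (GRCm38.p6), at chr1:186705990-186706239 and chr9:116175364-116175613, both on the minus strand and printed 5′ to 3′. In the annotation the *Tgfb2* window also overlaps an exon of *Gm29491*, a gene on the opposite strand, and the *Tgfbr2* window overlaps no exon. Of the 10 genes, 6 had an entry in the promoter table. Capitals mark matches to CAGAC (the SMAD box), CACGTG (an E-box) and TATAAA (the TATA box). GGGCGG (the GC box), TGAGTCA (AP-1) and TGACGT (part of a CRE) were searched as well, all on both strands.
Tgfb2: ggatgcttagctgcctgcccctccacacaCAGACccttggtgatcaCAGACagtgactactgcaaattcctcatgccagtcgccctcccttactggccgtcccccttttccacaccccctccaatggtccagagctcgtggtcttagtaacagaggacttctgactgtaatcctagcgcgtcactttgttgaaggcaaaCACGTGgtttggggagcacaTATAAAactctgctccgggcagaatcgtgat
Tgfbr2: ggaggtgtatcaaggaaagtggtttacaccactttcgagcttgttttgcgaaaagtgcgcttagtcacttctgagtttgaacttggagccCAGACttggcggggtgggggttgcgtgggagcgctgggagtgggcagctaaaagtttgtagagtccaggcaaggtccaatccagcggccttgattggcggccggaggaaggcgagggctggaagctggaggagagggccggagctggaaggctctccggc
*Tgfb2* had 2 matches to CAGAC, at 221 and 204 bases before the start, 1 to CACGTG at 51 and 1 to TATAAA at 31, and *Tgfbr2* had 1 to CAGAC at 160. No marked matches overlap. Of 32851 promoter windows of this length, 42.2% held CAGAC, 6.02% CACGTG, 12.4% TATAAA, 32.7% GGGCGG, 4.46% TGAGTCA and 6.47% TGACGT.

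*Tgfb1* (NCBI Gene 21803), the most widely expressed isoform, measured 16.6, 21.9 and 20.1 FPKM in the *Smyd2* fl/fl libraries and 16.1, 32.4 and 29.9 FPKM in the *Smyd2* SMC-/- libraries. The replicate 1 libraries had like values, and in replicates 2 and 3 the *Smyd2* SMC-/- level was 1.48 and 1.49 times that of *Smyd2* fl/fl. The log2 fold change was 0.35 (95% interval −0.31 to 1.01, adjusted p = 0.546 in limma). It was 0.17 without *Smyd2* SMC-/- replicate 2, 0.23 without *Smyd2* SMC-/- replicate 3 and 0.65 without *Smyd2* SMC-/- replicate 1. In replicates 2 and 3 alone it was 0.55, with an adjusted p of 0.00761. *Tgfb3* (NCBI Gene 21809) measured 10.8, 35.95 and 37.5 FPKM in the *Smyd2* fl/fl libraries and 13.4, 56.3 and 49.99 FPKM in the *Smyd2* SMC-/- libraries. It was low in replicate 1 of both genotypes, and replicate number took 93.0% of its sum of squares. The *Smyd2* SMC-/- library was the higher one within each replicate number (log2 fold change 0.44, adjusted p = 0.776 in limma, and 0.0653 when blocked). It passed in replicates 2 and 3 alone (adjusted p = 0.00999) and with the block for replicate 1 (0.0279). Leaving out 1 library moved the log2 fold change of *Tgfb3* from −0.12 without *Smyd2* fl/fl replicate 1 to 1.08 without *Smyd2* SMC-/- replicate 1.

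The receptors were led by *Tgfbr2* (NCBI Gene 21813), the ligand-binding kinase, which measured 19.1, 56.6 and 56.6 FPKM in the *Smyd2* fl/fl libraries and 28.0, 75.9 and 75.4 FPKM in the *Smyd2* SMC-/- libraries. The groups overlapped because both replicate 1 libraries were low, and within each replicate number the *Smyd2* SMC-/- level was the higher one, by a ratio of 1.46, 1.34 and 1.33. The log2 fold change was 0.45, with an adjusted p of 0.710 in limma without a block, 0.0458 when replicate number was blocked and 0.0175 in replicates 2 and 3 alone. Without *Smyd2* fl/fl replicate 1 it was −0.06, and without *Smyd2* SMC-/- replicate 1 0.92. Betaglycan, *Tgfbr3* (NCBI Gene 21814), measured 12.1, 13.1 and 14.1 FPKM in the *Smyd2* fl/fl libraries and 22.0, 21 and 30.4 FPKM in the *Smyd2* SMC-/- libraries. Every *Smyd2* SMC-/- library was above every *Smyd2* fl/fl library. Its log2 fold change was 0.84 (95% interval 0.43 to 1.25, adjusted p = 0.0606 in limma), and the adjusted p was 0.0259 when blocked, 0.0489 after rescaling to TPM and 0.0101 in replicates 2 and 3 alone. *Tgfbr1* (NCBI Gene 21812), the signalling kinase, had the lowest mean level of the 10 genes, at 4.79 to 8.25 FPKM over the 6 libraries. Its groups overlapped, with a log2 fold change of −0.07 (95% interval −0.60 to 0.47, adjusted p = 0.912 in limma). The sign turned after rescaling to TPM (0.05), where the value relative to the median of all genes was −0.05.

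Of the SMAD genes, *Smad2* had nearly the same level in every library, while *Smad7* differed between replicates in how the genotypes compared. *Smad2* (NCBI Gene 17126), a receptor-phosphorylated transducer, lay between 10.7 and 11.8 FPKM in the 6 libraries, with a log2 fold change of 0.04 (95% interval −0.25 to 0.32, adjusted p = 0.904 in limma). *Smad3* (NCBI Gene 17127), the other such transducer, had a level of 25.3 ± 3.29 FPKM in *Smyd2* fl/fl cells and 21.4 ± 4.57 FPKM in *Smyd2* SMC-/- cells (SD, n = 3). Its *Smyd2* SMC-/- value was the lower one within each replicate number, and the groups overlapped (log2 fold change −0.24, adjusted p = 0.539 in limma). Without *Smyd2* SMC-/- replicate 1 it was −0.10 and without *Smyd2* SMC-/- replicate 3 −0.39, and after rescaling to TPM −0.13. *Smad7* (NCBI Gene 17131), the inhibitor, measured 22.6, 11.5 and 10.4 FPKM in the *Smyd2* fl/fl libraries and 8.04, 14.4 and 12.7 FPKM in the *Smyd2* SMC-/- libraries. The replicate 1 pair was opposite to the other pairs. The log2 fold change was −0.27 over all libraries (adjusted p = 0.711 in limma), 0.28 in replicates 2 and 3 alone (adjusted p = 0.107) and 0.05 without *Smyd2* fl/fl replicate 1 (adjusted p = 0.927). It was −0.47 without *Smyd2* fl/fl replicate 3.

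*Ltbp2* (NCBI Gene 16997), whose protein associates with elastic fibres, measured 28.5, 24.1 and 23.6 FPKM in the *Smyd2* fl/fl libraries and 71.3, 16.9 and 22.0 FPKM in the *Smyd2* SMC-/- libraries. The high value was that of *Smyd2* SMC-/- replicate 1, and the other libraries of that group were below all *Smyd2* fl/fl libraries. The log2 fold change was 0.24 (adjusted p = 0.846 in limma). It was −0.29 in replicates 2 and 3 alone (adjusted p = 0.143), 0.63 without *Smyd2* SMC-/- replicate 2 and −0.37 without *Smyd2* SMC-/- replicate 1 (adjusted p = 0.226).

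Ordered by the mean over 6 libraries, the levels were 51.9 FPKM for *Tgfbr2*, 35.3 for *Tgfb2*, 34.0 for *Tgfb3*, 31.1 for *Ltbp2*, 23.3 for *Smad3*, 22.8 for *Tgfb1*, 18.8 for *Tgfbr3*, 13.3 for *Smad7*, 11.1 for *Smad2* and 6.64 FPKM for *Tgfbr1*. The ranges over libraries of neighbours in this order overlapped, apart from those of *Smad2* and *Tgfbr1*. The order differed between the genotypes for *Tgfb2*, *Smad3* and *Tgfbr3*. The *Tgfb2* mean of 21.03 FPKM in *Smyd2* fl/fl cells was below those of *Tgfb3* (28.1), *Ltbp2* (25.4) and *Smad3* (25.3), and its mean of 49.5 FPKM in *Smyd2* SMC-/- cells was below that of *Tgfbr2* alone (59.8). *Smad3* was above *Tgfb1* (19.6) and *Tgfbr3* (13.1) in *Smyd2* fl/fl cells, and at 21.4 FPKM below both (26.1 and 24.5) in *Smyd2* SMC-/- cells. *Tgfbr3* was below *Smad7* in *Smyd2* fl/fl cells (14.8) and above it in *Smyd2* SMC-/- cells (11.7). The mean level in replicates 2 and 3 was 3.71 times that in replicate 1 for *Tgfb3* and 2.81 times for *Tgfbr2*, but 1.02 times for *Tgfb2* and 0.434 times for *Ltbp2*.

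The makeup of the ligand transcripts was compared as each isoform's percent of their summed FPKM. *Tgfb1* took 31.8%, 28.6% and 26.1% in the *Smyd2* fl/fl libraries and 21.65%, 21.02% and 25.33% in the *Smyd2* SMC-/- libraries, so that the groups did not overlap. The difference of −6.16 percentage points had a two-sided exact permutation p of 0.1, the smallest that 3 libraries against 3 can give (0.3 after Benjamini-Hochberg adjustment over the 3 isoforms). *Tgfb2* took 47.6%, 24.4% and 25.25% in the *Smyd2* fl/fl libraries and 60.3%, 42.5% and 32.3% in the *Smyd2* SMC-/- libraries. The difference was 12.6 percentage points (exact permutation p = 0.3, adjusted 0.45). The *Tgfb2* share was the higher one in *Smyd2* SMC-/- cells within each replicate number, which the permutation does not take into account. Its difference was 4.98 points without *Smyd2* SMC-/- replicate 1, 20.2 points without *Smyd2* fl/fl replicate 1 and 19.0 points without *Smyd2* SMC-/- replicate 3. *Tgfb2* was the leading isoform in both replicate 1 libraries and in *Smyd2* SMC-/- replicate 2, and *Tgfb3* led in the rest. The *Tgfb3* share was 38.8% ± 15.7 and 32.3% ± 12.7 (SD, n = 3, exact permutation p = 0.5, adjusted 0.5). It was the lower one in *Smyd2* SMC-/- cells within each of the 3 replicate numbers, which the permutation does not take into account, and without *Smyd2* SMC-/- replicate 1 the difference was 0.672 points in the other direction.

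Among the receptors, *Tgfbr1* took 13.3%, 10.6% and 9.64% of the summed FPKM in the *Smyd2* fl/fl libraries and 9.49%, 6.68% and 6.25% in the *Smyd2* SMC-/- libraries, and the groups did not overlap (exact permutation p = 0.1, adjusted 0.3). Of the same sum *Tgfbr2* took 66.02% ± 11.2 in *Smyd2* fl/fl cells, and in *Smyd2* SMC-/- cells 63.5% ± 11.6 (SD, n = 3, exact permutation p = 0.7, adjusted 0.7). The difference of −2.50 percentage points changed sign without *Smyd2* fl/fl replicate 2 (0.809), *Smyd2* fl/fl replicate 3 (0.673) or *Smyd2* SMC-/- replicate 1 (3.92). *Tgfbr3* took 22.8% ± 9.40 and 29.0% ± 9.96 (SD, n = 3, exact permutation p = 0.5, adjusted 0.7), and its share was the higher one in *Smyd2* SMC-/- cells within each replicate number. The difference of 6.2 points was 0.788 points without *Smyd2* SMC-/- replicate 1, 3.18 and 3.79 points without *Smyd2* fl/fl replicates 2 and 3, and 11.6 and 10.6 points without *Smyd2* fl/fl replicate 1 and *Smyd2* SMC-/- replicate 2.

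**Figure D3:**
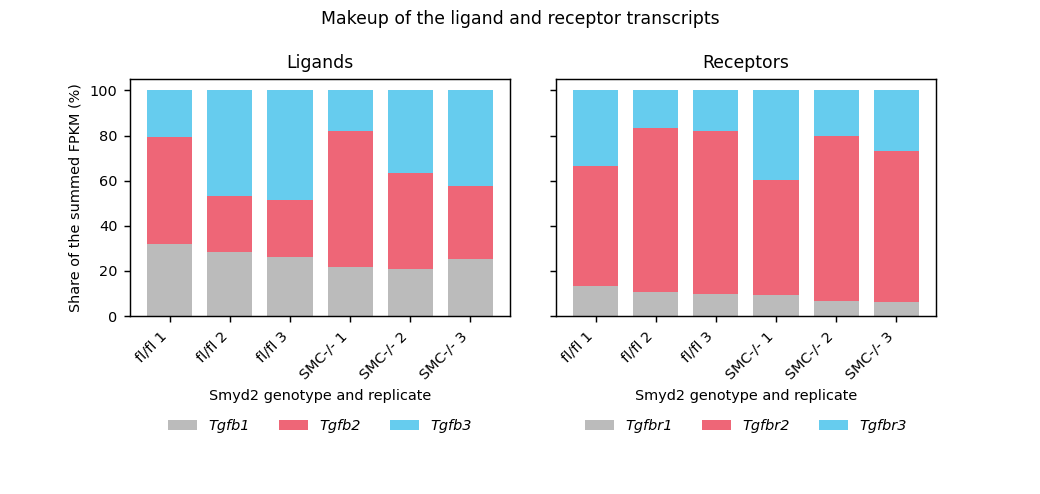
Share of each ligand (left) and receptor (right) in the summed FPKM of its set, in percent (vertical axis), as stacked bars for each of the 6 libraries. The *Tgfb2* part is larger in the *Smyd2* SMC-/- library of each replicate number, and the *Tgfbr1* part is smaller.

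Of the other genes of the pathway, 92 in number and 82 of them tested, 4 had an adjusted p under 0.05 in limma without a block, against 2.44% of all genes tested, and 17 with replicate number blocked, against 10.4%. Those called without a block were *Lrrc32*, which anchors latent TGF-beta to the cell surface, the transcription factor gene *Snai1* and smooth muscle actin *Acta2*, which fell, and the collagen lysyl hydroxylase gene *Plod2*, which rose. The count was 0 without *Smyd2* fl/fl replicate 2, without *Smyd2* fl/fl replicate 3 or without *Smyd2* SMC-/- replicate 3, 2 without *Smyd2* SMC-/- replicate 2 and 14 without *Smyd2* SMC-/- replicate 1. Of all genes tested 0.271%, 0.287%, 0.310%, 0.438% and 5.46% passed in those 5 fits, in that order. The largest adjusted p of the 4 genes in these leave-outs was 0.0783, for *Lrrc32* and *Snai1* without *Smyd2* fl/fl replicate 3.

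Among 14 tested genes of latency and activation, 1 fell and 0 rose without a block, and 3 rose and 2 fell when blocked, beside 2.44% and 10.4% of all genes, with a median log2 fold change of 0.06. *Lrrc32* measured 8.99, 7.80 and 8.58 FPKM in the *Smyd2* fl/fl libraries and 2.07, 2.64 and 2.61 FPKM in the *Smyd2* SMC-/- libraries (log2 fold change −1.46, adjusted p = 0.00946 in limma). When blocked, the binding protein genes *Ltbp1* (log2 fold change 0.84, adjusted p = 0.0404) and *Ltbp4* (0.83, adjusted p = 0.0253) rose, as did the fibrillin gene *Fbn1* (1.39, adjusted p = 0.0393). *Ltbp3*, of the same family and chosen after its values were seen, did not pass (−0.18, adjusted p = 0.271 when blocked). The integrin gene *Itgb3* fell when blocked (−0.70, adjusted p = 0.0456). Without a block these 4 genes had adjusted p-values of 0.128, 0.659, 0.160 and 0.0793, in the order *Ltbp1*, *Ltbp4*, *Fbn1* and *Itgb3*. In that fit the log2 fold change of *Ltbp4* was 0.00412 without *Smyd2* fl/fl replicate 1 and 1.56 without *Smyd2* SMC-/- replicate 1, and *Ltbp1* (log2 fold change 1.11, adjusted p = 0.0201) and *Fbn1* (adjusted p = 0.0313) passed without *Smyd2* SMC-/- replicate 1.

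Of 10 tested co-receptor and activin genes 0 were called in limma without a block, beside 2.44% of all genes (3 at an unadjusted p under 0.05, beside 20.3%), and 2 rose and 1 fell when blocked, beside 10.4% of all genes, around a median log2 fold change of −0.05. The type I receptor gene *Acvrl1* measured 1.48, 2.22 and 2.03 FPKM in the *Smyd2* fl/fl libraries and 0.22, 0.52 and 0.74 FPKM in the *Smyd2* SMC-/- libraries (log2 fold change −0.97, adjusted p = 0.0306 when blocked and 0.0683 without). Its fold change was −1.85 on the log2 scale with 0.1 as the pseudocount. Its mean of 0.493 FPKM in *Smyd2* SMC-/- cells was below the filter of 0.5 FPKM, which it passed through the *Smyd2* fl/fl libraries (1.91 FPKM). Follistatin, *Fst*, which binds activin, rose when blocked (1.83, adjusted p = 0.0260, against 0.109 without), as did the inhibin alpha subunit gene *Inha* (1.38, adjusted p = 0.0404, against 0.0542 without). Of the 5 other SMAD genes 0 were called in limma without or with the block, beside 2.44% and 10.4% of all genes, and 0 had an unadjusted p under 0.05 in either, beside 20.3% and 32.1%. Their median was −0.09. The common mediator *Smad4* had a level of 33.8 ± 1.97 FPKM in *Smyd2* fl/fl and 33.1 ± 4.16 FPKM in *Smyd2* SMC-/- cells (SD, n = 3). *Smad5*, a transducer of bone morphogenetic proteins, had 17.5 ± 2.25 and 13.3 ± 2.60 FPKM (SD, n = 3), and it passed in replicates 2 and 3 alone (log2 fold change −0.61, adjusted p = 0.0101 in limma).

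Of 24 tested SMAD regulators 0 were called in limma without a block, beside 2.44% of all genes (5 at an unadjusted p under 0.05, beside 20.3%), around a median log2 fold change of −0.08. When blocked, where 10.4% of all genes passed, the co-repressor gene *Tgif1* (−0.53, adjusted p = 0.0433, against 0.0829 without) and the deacetylase gene *Sirt1* (−0.61, adjusted p = 0.0407, against 0.212 without) fell. Among 32 tested target genes, a list that shares *Smad7* with the 10 genes, 1 rose and 2 fell without a block, beside 2.44% of all genes, and 5 rose and 2 fell when blocked, beside 10.4%, around a median of 0.09. *Plod2* measured 66.8, 78.2 and 78.1 FPKM in the *Smyd2* fl/fl libraries and 219.7, 361.1 and 283.9 FPKM in the *Smyd2* SMC-/- libraries (log2 fold change 1.91, adjusted p = 0.00964 in limma). *Acta2* fell by 1.55 on the log2 scale (adjusted p = 0.00803 in limma) and *Snai1* by 1.31 (adjusted p = 0.0123 in limma), so that called targets lay in both directions. When blocked, the lysyl oxidase gene *Lox* (1.80, adjusted p = 0.00662) and fibronectin *Fn1* (0.91, adjusted p = 0.0411) rose as well, as did the protease inhibitor gene *Timp1* (0.58, adjusted p = 0.0393) and the cell cycle inhibitor gene *Cdkn1a* (0.55, adjusted p = 0.0371). Without a block these 4 genes had adjusted p-values of 0.199, 0.532, 0.293 and 0.0638. In that fit the log2 fold change of *Fn1* was 0.28 without *Smyd2* fl/fl replicate 1 and 1.5 without *Smyd2* SMC-/- replicate 1, and that of *Lox* 1.15 and 2.32.

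The medians of the lists moved with the libraries used. In replicates 2 and 3 alone they were −0.03 for latency and activation, 0.125 for co-receptors and activins, −0.32 for the other SMAD genes, −0.04 for the SMAD regulators and 0.29 for the targets. Rescaling to TPM gave 0.18 for latency and activation and 0.22 for the targets, and turned the signs for the co-receptors (0.06), the other SMAD genes (0.03) and the SMAD regulators (0.04), but that scaling raised the median of all genes by 0.113. Relative to the median of all genes these 3 medians were −0.04, −0.07 and −0.06 as deposited and −0.03, −0.07 and −0.05 in TPM, so their place below it did not turn. Leaving out 1 library gave a median of the targets between −0.06 without *Smyd2* fl/fl replicate 1 and 0.30 without *Smyd2* SMC-/- replicate 1. The median of the co-receptors was 0.05 without *Smyd2* fl/fl replicate 1 and −0.16 without *Smyd2* fl/fl replicate 2, that of latency and activation −0.00414 without *Smyd2* SMC-/- replicate 2, and that of the other SMAD genes −0.26 without *Smyd2* SMC-/- replicate 1.

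**Figure D4:**
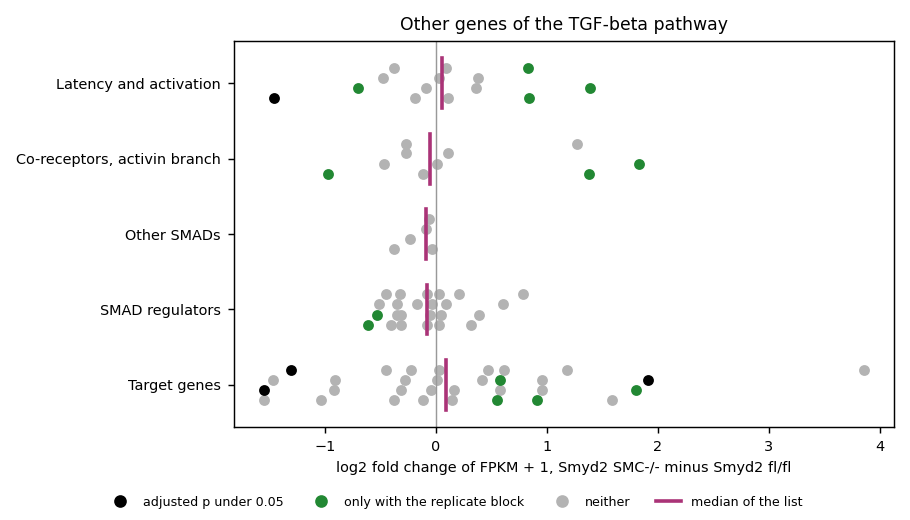
Log2 fold change of FPKM + 1 (horizontal axis) of each tested gene in 5 lists of the TGF-beta pathway, with black points for an adjusted p under 0.05 in limma, green for one reached only with replicate number blocked, and a purple line at the median of the list. Over all libraries without a block the medians lie between −0.09 and 0.09, and calls lie on both sides of 0.

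*Tgfb2* and *Smyd2* are on the same chromosome, with midpoints 3.24 Mb apart. Of 36 other genes tested within 5 Mb of *Smyd2*, a window chosen after the values were seen, 22 had a positive and 14 a negative log2 fold change. Their median was 0.12, against 0.11 for the 672 genes tested on the chromosome and −0.02 for all genes tested. Of all genes tested, 6032 had a positive and 6533 a negative log2 fold change. Of these 36, 2 had an adjusted p under 0.05 in limma without a block, against 2.44% of all genes tested, the kinase gene *Mark1* (log2 fold change 1.31, adjusted p = 0.0220) and the phosphatase gene *Ptpn14* (1.17, adjusted p = 0.0235). Without *Smyd2* fl/fl replicate 2, *Smyd2* fl/fl replicate 3, *Smyd2* SMC-/- replicate 2 or *Smyd2* SMC-/- replicate 3, in that order, the adjusted p was 0.0900, 0.119, 0.0726 and 0.0892 for *Mark1* and 0.128, 0.0529, 0.115 and 0.136 for *Ptpn14*. With replicate number blocked 5 passed, against 10.4% of all genes, *Mark1*, *Ptpn14*, *Tgfb2*, the potassium channel gene *Kcnk2* (0.99, adjusted p = 0.0292, against 0.177 without, and a log2 fold change of 1.96 with a pseudocount of 0.1) and *Sertad4* (−1.55, adjusted p = 0.0372, against 0.0593 without). *Sertad4* was lower in *Smyd2* SMC-/- cells and the other called genes higher. These higher genes all lay on the *Tgfb2* side of *Smyd2*, and *Sertad4* on the other. Between *Tgfb2* and *Smyd2* lay 6 tested genes, with log2 fold changes of −0.33 to 1.17. Of these, *Ptpn14* was called without a block (2.44% of all genes passed), and *Ptpn14* and *Kcnk2* when blocked (10.4%). The part of this position in the difference of *Tgfb2* was not tested.

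**Figure D5:**
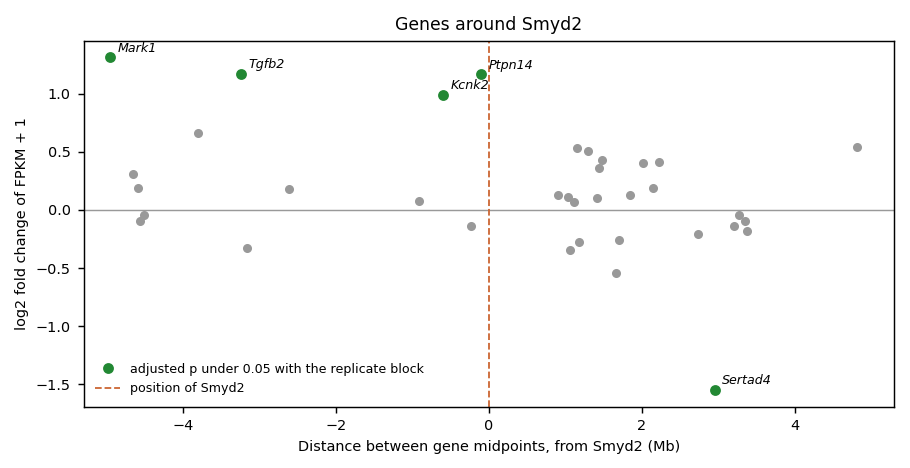
Log2 fold change of FPKM + 1 (vertical axis) of the genes tested within 5 Mb of *Smyd2*, against the distance between gene midpoints in Mb (horizontal axis), with *Smyd2* itself left out and its position dashed. Green points, with names, passed an adjusted p of 0.05 with replicate number blocked. *Mark1*, *Tgfb2*, *Kcnk2* and *Ptpn14*, all higher, lie on the side of negative distance, and *Sertad4*, which is lower, lies on the other.

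By Pearson correlation of log2(FPKM + 1) over the 6 libraries, the pattern of *Tgfb2* was most like those of *Plpp5* (r = 0.982), *Aff3* (0.979), *Atp6v0a2* (0.978), *Ndrg4* (0.976) and *Mpp2* (0.973), among 8763 genes with a mean level of 5 FPKM or more. The libraries share genotype and replicate groups, so the coefficients are a description. The 5 genes were chosen for following *Tgfb2*, whose groups did not overlap, so a genotype test on them would largely restate that choice. All 5 genes were highest in *Smyd2* SMC-/- replicate 2, as was *Tgfb2*. *Ndrg4* measured 9.02, 7.50 and 8.17 FPKM in the *Smyd2* fl/fl libraries and 14.92, 17.65 and 14.95 FPKM in the *Smyd2* SMC-/- libraries.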

How the data were processed

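RNA-seq was performed on 6 libraries of mouse aortic smooth muscle cells. The authors deposited FPKM values per gene, for which the submitters' processing notes name Bowtie2 and RSEM, and the genome build and library strand are not given in the sources used here. FPKM is not a count, so log2(FPKM + 1) was tested with limma 3.58.1 in R 4.3.3 (lmFit and eBayes with trend and robust settings). Genes averaging 0.5 FPKM or more entered the fit, Benjamini-Hochberg adjustment ran over all 12565 of them, and a call was an adjusted p under 0.05. The fit was tested on simulated data with added changes larger than those of the 10 TGF-beta genes, so smaller changes were not covered. Shares were compared by two-sided exact permutation tests with SciPy 1.17.1. Replicate numbers come from the labels. Libraries with the same number deviated from their group means together (correlations 0.615, 0.460 and 0.527), so the number was used as a block beside the fit without one. Replicates 2 and 3 correlated as much across numbers (0.461 and 0.439) and replicate 1 negatively with both (−0.557 to −0.508), so these values set replicate 1 apart and do not tell numbers 2 and 3 from each other. Low values came near whole fragments (within 0.15) for 72.4% to 74.8%, against 30% by chance, which gave the approximate depth, and 1 fragment on 2000 bases is worth 0.0244 to 0.0288 FPKM. The pathway genes named are those past the threshold with or without the block, or otherwise the 2 of a list with the highest mean, and exceptions are marked as chosen after their values were seen. *Mstn* and *Tdgf1* were matched to no gene of the table. Gene positions are from GENCODE M21 (GRCm38), matched by NCBI Gene number. Antisense genes overlap exons of *Tgfb2*, *Tgfb3*, *Ltbp2* and *Smyd2*, and without strand their reads cannot be told apart. Alternatives were a pseudocount of 0.1, no filter, the block, replicates 2 and 3 alone, TPM, quantile normalization and leaving out each library. The block for replicate 1, quantile normalization of the lists, and the alternatives for the genes chosen after their values were seen were added after seeing the data. The members and lists were chosen with earlier results of these data known.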

Additional observations from a re-analysis of the deposited data

How the results depend on the processing

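The count of TGF-beta genes called, 0 of 10, became 3 with the replicate block, 5 in replicates 2 and 3 alone, 2 after rescaling to TPM (2.75% of all genes), 1 after quantile normalization (2.73%) and 4 with a block for replicate 1, and was 0 without each library in turn (0.271% to 5.46%). The count of other pathway genes, 4, became 17 of 82 with the replicate block (10.4% of all genes), 37 in replicates 2 and 3 alone (29.0%), 7 after quantile normalization (2.73%) and 26 with the block for replicate 1 (20.3%), and ranged from 0 to 14 without 1 library. *Smyd2* passed with the replicate block (log2 fold change −1.48), the block for replicate 1 (−1.48) and in replicates 2 and 3 alone (−1.35). Among the genes whose log2 fold change is given, the replicate block changed no other call than those given beside the results. Besides *Smyd2*, the log2 fold change of 47 genes was followed over 13 alternatives, and it changed sign in 9 and kept it in 38. In replicates 2 and 3 alone *Smad7* was 0.281, *Ltbp2* −0.290, *Smad4* 0.0214 and *Ctgf* 1.20. After rescaling to TPM *Tgfbr1* was 0.048, *Smad4* 0.0882 and *Ctgf* 0.0035, where all genes shifted by 0.113 and these 3 stayed below the median of all genes (−0.05, −0.01 and −0.09 relative to it). With a pseudocount of 0.1 *Clec3b* was −0.00793, and after quantile normalization *Smad4* was 0.0118. Leaving out 1 library gave ranges of −0.118 to 1.08 for *Tgfb3*, −0.272 to 0.066 for *Tgfbr1*, −0.0557 to 0.918 for *Tgfbr2*, −0.469 to 0.0531 for *Smad7*, −0.373 to 0.633 for *Ltbp2*, −0.124 to 0.0517 for *Smad4*, −0.356 to 0.388 for *Clec3b*, −0.669 to 0.805 for *Scara5* and −0.856 to 1.26 for *Ctgf*. The share difference ranged from −15.5 to 0.672 percentage points for *Tgfb3* and from −8.97 to 3.92 for *Tgfbr2*, and the other 4 shares kept their sign, that of *Tgfbr3* between 0.788 and 11.6. The cause was not tested. At this depth 1 fragment on 2000 bases is worth up to 0.0288 FPKM, and differences near that level were not detectable.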

Other observations

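Several target genes of the pathway, chosen here after their values were seen, differed between replicate 1 and the other replicates in how the genotypes compared. *Ctgf*, a matricellular protein gene, measured 137.7, 161.8 and 146.9 FPKM in the *Smyd2* fl/fl libraries and 19.8, 387.96 and 327.5 FPKM in the *Smyd2* SMC-/- libraries, in the order of replicates 1, 2 and 3. *Igfbp3*, which encodes a binding protein of insulin-like growth factors, lay between 0.70 and 1.24 FPKM in all but the *Smyd2* SMC-/- libraries of replicates 2 and 3, which held 79.6 and 96.9 FPKM. *Tgfbi* measured 1.28, 14.5 and 14.4 FPKM in *Smyd2* fl/fl and then 4.33, 0.75 and 1.32 FPKM. Of these 3 genes 0 had an adjusted p under 0.05 in limma over all libraries, without or with the block (2.44% and 10.4% of all genes), and 1, *Igfbp3*, had an unadjusted p under 0.05 without it (20.3% of all genes). In replicates 2 and 3 alone all 3, picked for how they differed in those libraries, passed in limma, where 29.0% of all genes did, with log2 fold changes of 1.20 for *Ctgf* (adjusted p = 0.000743), 5.59 for *Igfbp3* (8.67e-07) and −2.94 for *Tgfbi* (3.20e-05). Without *Smyd2* SMC-/- replicate 1 *Ctgf* (1.26, adjusted p = 0.0145) and *Igfbp3* (5.63, adjusted p = 0.000639) passed as well, beside 5.46% of all genes. The difference between replicates was not tested.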
